A study of Mus musculus with 6 samples.

Results

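Connexins and pannexins are the channel proteins through which neighbouring cells exchange small molecules, or through which a single cell releases them. The genes described here are Gja1, Gja4, Gja5, Gjb2, Gjb5, Gjc1 and Panx1. They were taken by symbol from the RNA-Seq table, and each of the 7 symbols matched 1 of its 19730 rows. The list holds 6 connexins and 1 pannexin. It is not the whole family: of 19 connexin and pannexin genes considered here, 14 had a row, and the other 7 of those are given beside the members. RNA came from primary mouse mesangial cells, the contractile cells that hold the capillary loops of the glomerulus together. All cultures were used at passages 3 to 6 and grown in Dulbecco's Modified Eagle Medium with 25.5 mM glucose and 20% foetal bovine serum, in both groups. The 3 TGF-β1 libraries came from cells given 10 ng/ml of transforming growth factor beta 1 for 72 h, and the 3 Control libraries from cells labelled Control, with no vehicle stated. Strain, sex and age of the source animals were not given in the sources used here, nor whether replicates were separate cultures, so the p-values measure only the spread between these libraries.

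Connexins assemble into hemichannels, and hemichannels of adjoining cells dock to form gap junctions that pass ions and second messengers. Pannexins form channels of similar shape that open to the outside and release ATP, which then acts on purinergic receptors. In the glomerulus, gap junctions couple mesangial cells to each other and to the juxtaglomerular cells, and TGF-β1 is a main driver of glomerular scarring. The study also profiled DNA methylation at Gja4, and those data are not analysed here.

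Values are FPKM, fragments scaled to transcript length and to the library's mapped fragments, which lets levels of different genes be compared. Depth, recovered from the steps of the lowest FPKM values, was between 10.0 M and 11.2 M fragments per library. Pearson's r of log2(FPKM + 1) across genes was 0.876 to 0.940 within groups and 0.818 to 0.853 between them, as a description. The replicate 2 libraries of both groups deviated from their group means together (correlation across genes 0.232, against at most 0.117 for any other Control and TGF-β1 pair), and each member is therefore also given for replicates 1 and 3 alone. The treatment was visible in known TGF-β1 responses: Ctgf, Col1a1, Acta2 and Smad7 all rose, with log2 changes of 4.63, 2.04, 1.96 and 1.66. Of 8 mesangial markers, Acta2, Tagln and Pdgfrb were abundant, at group means of at least 29.2 FPKM. Acta2, itself a TGF-β1 response named above, and Tagln were called higher, and Pdgfrb was called lower. Gata3 was not called (means of 1.76 FPKM in Control and 1.03 FPKM with TGF-β1). Cspg4, tested without the filter described below, was called higher (0.0735 and 1.21 FPKM). Itga8, Des and Thy1 had means of at most 0.271 FPKM in either group, so part of the usual mesangial marker set was close to absent. Summed podocyte markers were 19.7 to 24.9 FPKM in Control and 12.6 to 13.7 FPKM with TGF-β1, and summed macrophage markers 8.19 to 9.58 and 2.26 to 3.24 FPKM. The macrophage difference lay in Csf1r (means of 6.27 and 0.411 FPKM), while Cd68 was not called (2.79 and 2.22 FPKM) and Ptprc and Itgam were near 0. The part of such cells in the changes given here was not tested.

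Expression was tested with limma on log2(FPKM + 1) over all 11898 rows with a mean of at least 1 FPKM, and an adjusted p under 0.05 was called changed. By that test 48.1% of all rows changed, 24.5% higher and 23.6% lower, so a call by itself is common in these libraries. Of the calls 50.9% were higher, and after rescaling to a common sum of protein-coding rows, which moved the median change of all rows from -0.02 to -0.19, 33.9% were. Of the 7 members, 4 reached the level of 1 FPKM, and all 4 were called: Gja1, Gjb2 and Panx1 rose and Gjc1 fell. Libraries of the groups did not overlap in any of these 4, which held for 59.4% of all rows tested. The other 3 members, Gja4, Gja5 and Gjb5, were tested in the same way without the filter, where 30.5% of all 19730 rows and 11.7% of the rows under 1 FPKM were called. Of these 3, Gja4 and Gja5 rose and Gjb5 was not called.

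**Figure D1:**
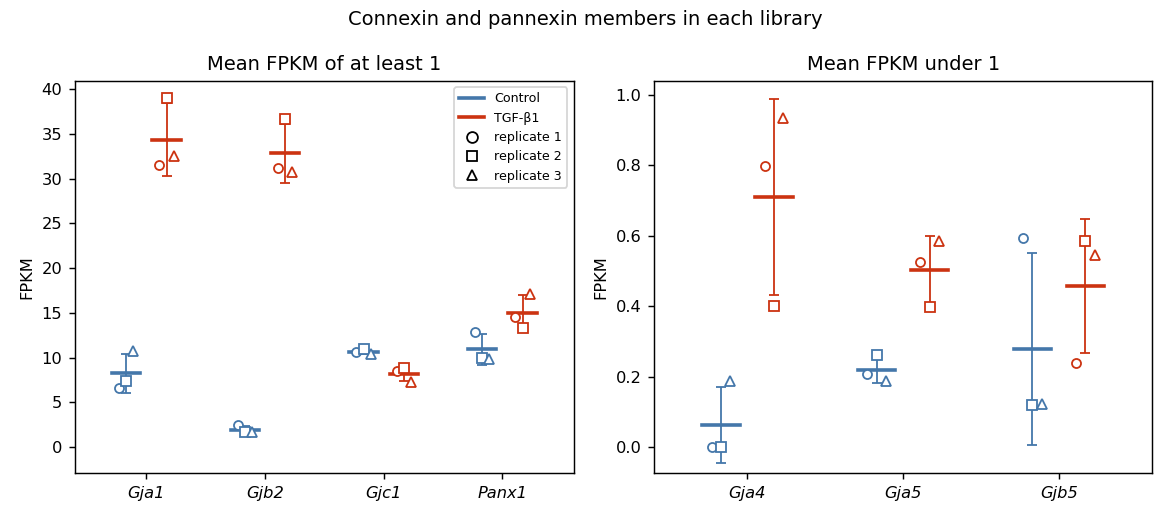
FPKM (y axis, linear, with a separate scale in each panel) of the 7 members in the 3 Control (blue) and 3 TGF-β1 (red) libraries. Symbols mark the replicate, thick bars the mean and error bars the SD. Gja1 and Gjb2 stand far above Control with TGF-β1, Gjc1 lies below it, and only Gjb5 has groups that overlap. Groups did not overlap in 59.4% of all rows with a mean of at least 1 FPKM, a share not counted for rows under it.

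The regions around the transcription start of Gja1, Gjb2 and Gja4 are shown because these 3 genes had the largest positive log2 changes among the members while lying apart in the genome. The windows hold 250 bases before and 50 bases after the RefSeq start (GRCm38.p6), and each was found once, without a mismatch, in mm9, the build of the study. On mm9 they lie at chr10:56096856-56097155 on the plus strand for Gja1, and on the minus strand at chr14:57723490-57723789 for Gjb2 and chr4:126991234-126991533 for Gja4. Each start coincides with the gene start in the mm9 annotation. Capitals mark matches, on either strand, to the motifs searched.
Gja1: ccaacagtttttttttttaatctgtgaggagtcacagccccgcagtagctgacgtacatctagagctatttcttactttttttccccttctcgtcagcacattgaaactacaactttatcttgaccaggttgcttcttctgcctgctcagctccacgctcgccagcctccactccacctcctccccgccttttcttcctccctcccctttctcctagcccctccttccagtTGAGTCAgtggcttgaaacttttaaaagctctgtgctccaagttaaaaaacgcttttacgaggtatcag
Gjb2: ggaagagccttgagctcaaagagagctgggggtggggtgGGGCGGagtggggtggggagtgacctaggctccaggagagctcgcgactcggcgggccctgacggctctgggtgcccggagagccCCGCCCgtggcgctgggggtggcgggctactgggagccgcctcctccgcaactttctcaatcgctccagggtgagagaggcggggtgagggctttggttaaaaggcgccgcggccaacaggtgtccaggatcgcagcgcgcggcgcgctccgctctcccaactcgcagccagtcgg
Gja4: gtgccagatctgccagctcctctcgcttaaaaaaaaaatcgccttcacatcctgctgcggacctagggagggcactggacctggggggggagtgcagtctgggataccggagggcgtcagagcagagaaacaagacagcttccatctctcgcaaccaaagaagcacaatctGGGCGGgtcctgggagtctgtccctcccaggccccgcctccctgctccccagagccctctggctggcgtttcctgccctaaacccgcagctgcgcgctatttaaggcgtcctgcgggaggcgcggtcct

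The motifs were chosen after the expression values were known, and were the TATA box TATAAA, the GC box GGGCGG, the SMAD-binding CAGA box CAGACA, the AP-1 site TGANTCA and the TEAD site GGAATG. No matches overlapped in these windows. The Gja1 window held an AP-1 match that begins 19 bases before the start, a motif present in 7.81% of 32851 promoter windows of the same length. The Gjb2 window held 2 GC boxes and the Gja4 window 1, a motif present in 35.7% of windows. The CAGA box, present in 21% of windows, the TATA box (13.6%) and the TEAD site (14.7%) were in none of the 3, which says only that these letters are not in these 300 bases. The windows differed in composition: Gjb2 had 70% G and C and 27 CpG pairs, Gja4 62% and 16, and Gja1 47.7% and 8, against medians of 52.7% and 7 over all windows. A match is a description and does not show that a factor binds there.

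Gja1 encodes connexin 43, the most widely expressed connexin of contractile and stromal cells. Its gene lies on mm9 chromosome 10, 56097106 to 56110225. It stood at 6.60, 7.36 and 10.8 FPKM in Control replicates 1 to 3 and at 31.5, 39.0 and 32.5 FPKM with TGF-β1. The lowest treated library thus lay well above the highest Control library. The means were 8.24 ± 2.22 and 34.3 ± 4.09 FPKM (SD, n = 3), a ratio of 4.17. In log2(FPKM + 1) it rose by 1.96 (SE 0.18, limma adjusted p 3.46e-04), the 217th largest increase of the rows tested. In replicates 1 and 3 alone the rise was 1.80 (limma adjusted p 0.0112). Gja1 stayed called in each of the 6 fits that left out 1 library.

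Gjb2 encodes connexin 26, a beta connexin best known from epithelia such as the inner ear, skin and liver. It lies on mm9 chromosome 14, 57717437 to 57723539. Control libraries held 2.50, 1.68 and 1.72 FPKM, and TGF-β1 libraries 31.2, 36.6 and 30.7 FPKM. It was low in every Control library and close to the level of Gja1 in every TGF-β1 library. The mean rose from 1.97 ± 0.46 to 32.8 ± 3.28 FPKM, a ratio of 16.7. Its change in log2(FPKM + 1) was 3.52 (SE 0.14, limma adjusted p 1.72e-05), the 46th largest among increases. The added 1 shrinks it because Control is low, and with a pseudocount of 0.1 it was 4.01. In replicates 1 and 3 alone the log2(FPKM + 1) change was 3.37 (limma adjusted p 0.00208). Gjb2 also stayed called in all 6 fits that left out 1 library.

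Gjc1 encodes connexin 45, a connexin of vascular smooth muscle and of the heart's conduction tissue, and lies on mm9 chromosome 11, 102660893 to 102681014. It stood at 10.6, 11 and 10.4 FPKM in Control and at 8.48, 8.90 and 7.24 FPKM with TGF-β1. All treated libraries were below all Control libraries, by a small margin. The mean fell from 10.7 ± 0.285 to 8.21 ± 0.86 FPKM, and the change in log2(FPKM + 1) was -0.35 (SE 0.10, limma adjusted p 0.0246). When single libraries were dropped, 4 of 6 fits no longer called it, those without Control replicate 1 or 2 or TGF-β1 replicate 1 or 3, at adjusted p-values of 0.0616 to 0.0761. In replicates 1 and 3 alone the change was -0.38 with an adjusted p of 0.0745.

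Panx1 encodes pannexin 1, the broadly expressed ATP release channel, and lies on mm9 chromosome 9, 14809605 to 14849922. Control libraries held 12.9, 10.0 and 9.85 FPKM, and TGF-β1 libraries 14.5, 13.3 and 17.2 FPKM. The groups were apart only narrowly, with Control replicate 1 close under TGF-β1 replicate 2. The mean was 10.9 ± 1.70 FPKM in Control and 15.0 ± 1.97 FPKM with TGF-β1, a ratio of 1.37. The rise in log2(FPKM + 1) was 0.43 (SE 0.14, limma adjusted p 0.0440). The call was lost without Control replicate 2 or 3 or TGF-β1 replicate 1 or 3 (adjusted p 0.0997 to 0.130), in replicates 1 and 3 alone (0.116), and under both rescalings that lowered the typical gene, at 0.0889 and 0.158.

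Gja4 and Gja5 encode connexins 37 and 40, which are best known from arterial endothelium, and Gja5 also from the renin-secreting cells at the glomerular pole. Gja4 was listed at 0, 0 and 0.187 FPKM in Control and at 0.797, 0.399 and 0.932 FPKM with TGF-β1. At the recovered depth these values correspond to about 0, 0 and 3 fragments against about 13, 6 and 15. Every treated library was above every Control library, but the whole difference rests on few fragments, and no fold is given against a Control group that is listed at 0 in 2 libraries. Its log2(FPKM + 1) change was 0.68 (SE 0.14, limma adjusted p 0.0153), and 0.77 in replicates 1 and 3 alone (adjusted p 0.0439). At such low values its size depends on the pseudocount, and with 0.1 in place of 1 it was 2.44. It lost the call in 4 of 6 fits, without Control replicate 1 or 2 or TGF-β1 replicate 1 or 3, at 0.0569 to 0.0721.

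Gja5 stood at 0.209, 0.261 and 0.187 FPKM in Control and at 0.526, 0.399 and 0.586 FPKM with TGF-β1, or about 8, 10 and 7 against about 20, 14 and 22 fragments. Again the groups did not overlap, at a level far below that of Gja1. How often groups are apart among all rows under 1 FPKM was not counted, so for Gja4 and Gja5 this is a description only. Its change was 0.30 (SE 0.07, limma adjusted p 0.0215), and 0.38 in replicates 1 and 3 alone (adjusted p 0.0269). With a pseudocount of 0.1 the change was 0.91 and was not called (adjusted p 0.0522). The call was lost without Control replicate 1 or 3 or TGF-β1 replicate 1, at 0.0520 to 0.0623. The mm9 annotation of Gja5 (chromosome 3, 96708616 to 96881339) overlaps Gpr89 on the opposite strand, and counting by strand is not stated. Gpr89 stood at 2.85 and 3.32 FPKM in the groups and was not called (adjusted p 0.381).

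Defining endothelial genes were close to absent in the same libraries. Of 8 endothelial markers, 6 had a row, none of these reached a mean of 1 FPKM, and their summed level was 0.743 to 0.969 FPKM in Control and 0.440 to 1.14 FPKM with TGF-β1. Cdh5 and Kdr, the junctional cadherin and the VEGF receptor of endothelium, were listed at 0 in all Control libraries and had means of 0.0162 and 0.0132 FPKM with TGF-β1. Of the list, 1 marker, Vwf, was called, beside 11.7% of all rows under 1 FPKM. It was lower with TGF-β1, at means of 0.465 FPKM in Control and 0.222 FPKM with TGF-β1. Its limma adjusted p without the filter was 0.0498, just under the threshold.

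Gjb5 encodes connexin 31.1, a connexin of keratinised epithelium and of trophoblast. Control libraries held 0.593, 0.119 and 0.122 FPKM and TGF-β1 libraries 0.240, 0.585 and 0.546 FPKM, or about 10, 2 and 2 fragments against about 4, 9 and 9. The highest library was a Control and the groups overlapped. Its change was 0.20 (95% interval -0.22 to 0.63, limma adjusted p 0.444), an interval that holds changes of either sign. In replicates 1 and 3 alone the value was 0.05, and with a pseudocount of 0.1 it was 0.72 (adjusted p 0.410).

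Of the 14 genes with a row, 4 had a mean of at least 1 FPKM, and these are the members Gja1, Gjb2, Gjc1 and Panx1. Among the 10 genes under 1 FPKM, Gjc3, a connexin of myelinating glia, was the remaining call beside Gja4 and Gja5. Of all rows under 1 FPKM, 11.7% were called in the same fit, and counts this small are no result about the family. Gjc3 is given for its own values. Gjc3 was lower with TGF-β1, with 0.496 ± 0.110 FPKM in Control against 0.173 ± 0.108 FPKM (change -0.35, limma adjusted p 0.0334). With a pseudocount of 0.1 the change was -1.18 and was not called (adjusted p 0.0547), and the call was lost without Control replicate 2 or 3 or TGF-β1 replicate 1 or 3 (0.0919 to 0.112). The other 6 non-members with a row, Gja3, Gja6, Gjb1, Gjb6, Gje1 and Panx2, had about 6 fragments or fewer in each library, and none was called. Gja10, Gjd2, Gjd3, Gjd4 and Panx3 had no row in the table.

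**Figure D2:**
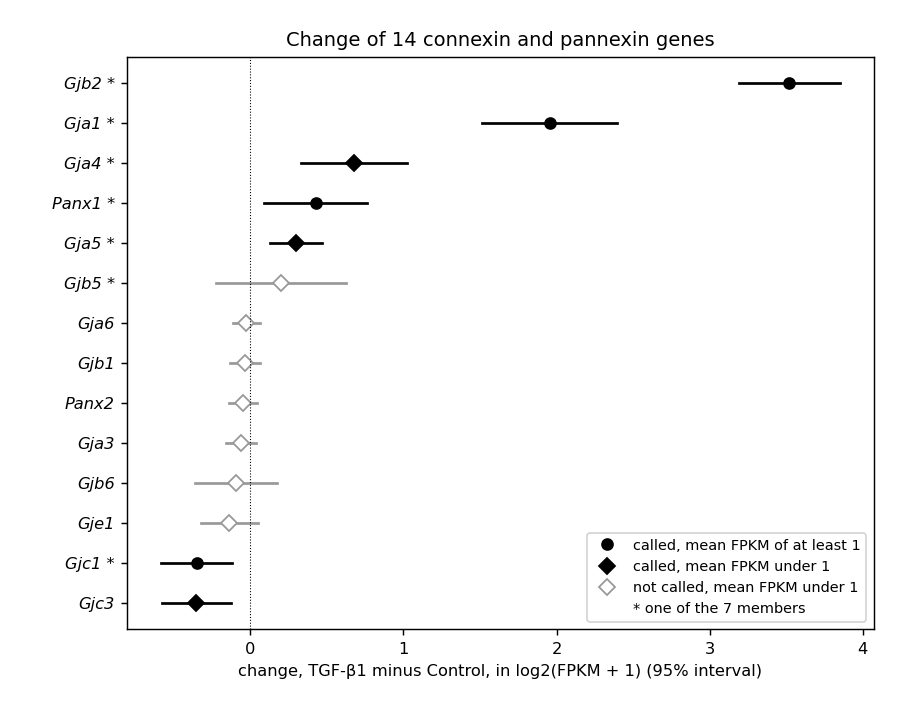
Change with TGF-β1 (x axis, difference in log2(FPKM + 1), with the 95% interval of the limma fit) of 14 connexin and pannexin genes, in order of size; members carry a star. Gjb2 and Gja1 lie apart to the right at changes of 3.52 and 1.96, and Gjc1 and Gjc3 lie lowest at -0.35; with a pseudocount of 0.1 Gja4 (2.44) lies above Gja1 (2.07) and Gjc3 (-1.18) below Gjc1 (-0.38).

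Because FPKM is per length, messages of different connexins can be added and compared, if each row holds its whole gene. Whether a row holds the gene or 1 transcript is not stated. Gjc1 has 5 annotated transcripts, Gja1 has 2 and Gjb2 has 1, so the shares and the order of levels below depend on this. The sum was taken over 12 connexins, the 6 members and the 6 other connexins given above, which are not all connexins of the mouse, so the shares below are shares of this sum alone. It was 21.5 to 24.4 FPKM in the Control libraries and 72.8 to 86.7 FPKM in the TGF-β1 libraries. In Control, Gjc1 made up 42.8 to 51.2% of it, Gja1 30.6 to 44.2% and Gjb2 7.08 to 11.6%. With TGF-β1, Gjc1 made up 9.95 to 11.6%, Gja1 43.1 to 45.0% and Gjb2 42.2 to 42.8%. The shares of Gja1 overlapped between the groups, while every treated library had a higher share of Gjb2 and a lower share of Gjc1 than every Control library. These shares are descriptions without a test, and fewer cells of a type and less RNA per cell cannot be told apart in such bulk samples.

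**Figure D3:**
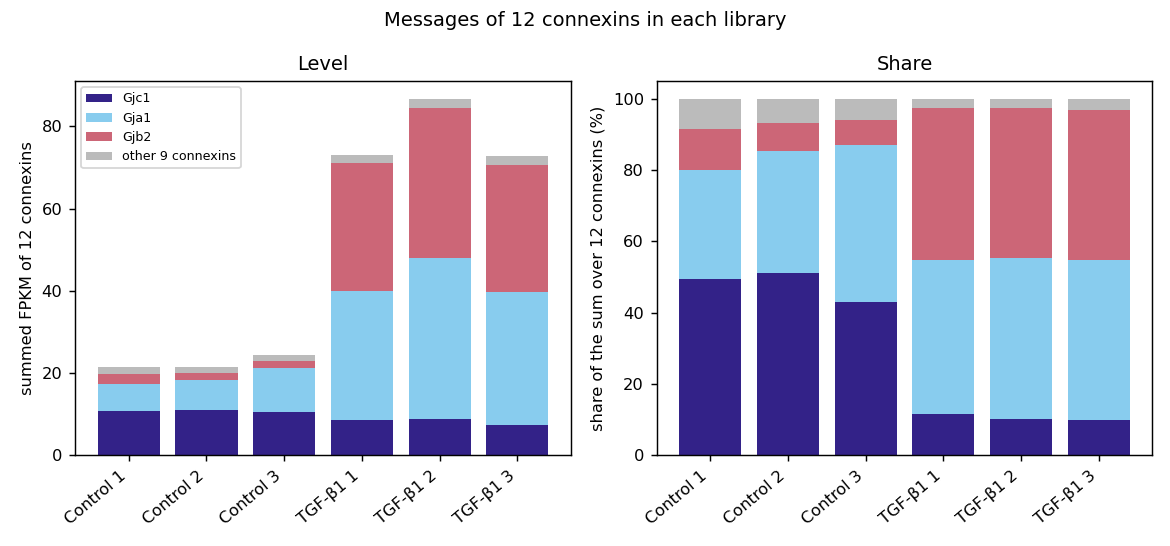
Summed FPKM of 12 connexins (left, y axis in FPKM) and the share of each in that sum (right, y axis in percent) for the 3 Control and 3 TGF-β1 libraries. Bars start at 0; Gjc1 (dark blue) is 42.8 to 51.2% of the Control bars and 9.95 to 11.6% of the TGF-β1 bars, where Gja1 and Gjb2 take most of the height.

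The order of the members' levels differed between the groups. In Control the means ran from Panx1 (10.9 FPKM) and Gjc1 (10.7) to Gja1 (8.24) and then Gjb2 (1.97). Ranges of Panx1, Gjc1 and Gja1 overlapped, and Gjb2 lay below them. With TGF-β1 the order was Gja1 (34.3 FPKM), Gjb2 (32.8), Panx1 (15.0) and Gjc1 (8.21). There Gja1 and Gjb2 overlapped with each other, and Panx1 and Gjc1 were apart from them and from one another.

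Ratios to Gja1 within each library set the changes of the members beside that of Gja1. On this scale each shift is the member's log2 change given above less that of Gja1, so the shifts restate those changes. The log2 ratio of Gjb2 to Gja1, with 1 added to each FPKM, was -1.12, -1.64 and -2.11 in the Control libraries, against -0.01, -0.09 and -0.08 in the treated ones, a shift of 1.56. The ratio of Gjc1 to Gja1 shifted by -2.30 and that of Panx1 by -1.53, again with groups that did not overlap. Over 3 such comparisons, an exact permutation test, two-sided, can give no p below 0.1 with 3 against 3 libraries and gives that value wherever groups are apart, so it does not bear on these shifts, which are given as descriptions.

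Some members lie near other connexin genes. Gja4 and Gjb5 are both on the minus strand of mm9 chromosome 4, at 126988665 to 126991283 and 127032053 to 127035425, with starts 44142 bases apart. With TGF-β1 they had means of 0.710 and 0.457 FPKM, and of the pair only Gja4 was called. Gjb2 lies on chromosome 14 between Gja3 and Gjb6, whose starts are 46672 and 28909 bases away. Neither was called: Gja3 had about 1 fragment in 2 Control libraries and was listed at 0 in the others, and Gjb6 had means of 0.187 and 0.119 FPKM (limma adjusted p 0.562). Gm4491, which starts 11181 bases from Gjb2, was listed at 0 in Control, had a TGF-β1 mean of 0.0728 FPKM and was not called. Gm17536, a long noncoding RNA gene that starts 43637 bases from Gjc1, stood at 0.778 and 0.263 FPKM and was called lower (limma adjusted p 0.00902).

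Gjb2 is best known from epithelia, so epithelial markers were looked at. Of the 7 with a row, 3 were called, all higher. The call through the filter, of 1 gene tested, stands beside 48.1% of all rows there. The 2 calls among the 6 under the filter stand beside 11.7% of rows under 1 FPKM. Counts this small are no result about the list. Of 9 markers listed 7 had a row, and their summed level was 0.603 to 1.26 FPKM in Control and 6.44 to 8.59 FPKM with TGF-β1. Cldn4, a claudin, was called higher, at 0.189 ± 0.118 and 4.85 ± 1.09 FPKM, and passed the filter only through its TGF-β1 libraries. Under the filter the keratins Krt18 and Krt19 were called higher, with TGF-β1 means of 1.57 and 1.06 FPKM. The defining cadherin Cdh1 had means of 0.0174 and 0.0638 FPKM, Krt8 of 0.0765 and 0.0394 FPKM, and Krt5 and Krt14 of at most 0.122 FPKM in either group, and none of these 4 was called. The part of such cells in the rise of Gjb2 was not tested.

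The genes with the 6-library profile nearest to that of Gja1 were sought among 6353 protein-coding genes with a mean of at least 10 FPKM. Likeness was the root mean square difference of log2(FPKM + 1) over the 6 libraries, after each gene was centred on its Control mean. They were Msn, a linker of actin to the membrane (difference 0.0938), Chst11, a chondroitin sulfotransferase (0.117), and Pdlim1, a cytoskeletal adaptor (0.133). Nearest to Gjb2 were Fbln2, a matrix glycoprotein (0.105), and Col4a3 and Thbs1, a collagen IV chain and a matricellular protein (0.127 and 0.129). Msn rose from 175 to 673 FPKM and Thbs1 from 18.2 to 221 FPKM. Chst11 and Col4a3, with Control means of 5.78 and 2.43 FPKM, reached the limit of 10 FPKM only through their TGF-β1 libraries. After centring on Control the difference mostly reflects the size of the change. A near profile therefore means a change of like size and is a description only.

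Proteins that bind connexins or control their traffic and turnover were counted next. Of 22 genes listed, 21 were tested, 9 rose, 1 fell and 11 were not called, beside 48.1% of all rows called. A share of calls this close to that of all rows is no result about the partners. The median log2 change was 0.34 against -0.02 over all rows. The largest increases were in Vcl (1.11), an actin linker of adhesion sites, Cav2 (0.97), a caveolar protein, and Src (0.79), a kinase that phosphorylates connexin 43. Cdh2, the N-cadherin of adherens junctions, fell by 0.83 on the log2 scale, with 114 ± 11.2 FPKM in Control and 63.8 ± 2.87 FPKM with TGF-β1 (limma adjusted p 7.81e-04). Tjp1, the scaffold ZO-1 that binds connexin 43, was at 25.9 ± 3.13 and 28.3 ± 2.32 FPKM and was not called (adjusted p 0.374). Nov, a secreted protein that binds connexin 43, lay under the filter and fell, with 0.970 ± 0.157 FPKM in Control and 0.115 ± 0.109 FPKM with TGF-β1 (adjusted p 0.00211 without the filter). Tjp1 and Nov were chosen after their values were seen.

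Receptors, enzymes and further channels of extracellular ATP were counted beside Panx1. Of 20 genes listed, 11 were tested, 2 rose, 3 fell and 6 were not called, again beside 48.1% of all rows and so no result about the list. The median log2 change was -0.07 against -0.02 over all rows. The ATP-gated channels P2rx5 and P2rx4 fell, by 1.34 and 0.53 on the log2 scale. P2ry14, a receptor for UDP-glucose, rose from 0.199 ± 0.064 to 1.93 ± 0.37 FPKM (change 1.28, or 2.77 with a pseudocount of 0.1), and passed the filter only through its TGF-β1 libraries. Of the volume-regulated anion channel subunits, Lrrc8c rose by 0.98 and Lrrc8a fell by 0.25, and the Lrrc8a call did not hold in 5 of the 6 fits on 5 libraries (0.0820 to 0.139), Control replicate 3 being the exception. Of the 9 genes under the filter, Lrrc8b was called, higher, beside 11.7% of all rows under 1 FPKM, which is again no result about the list.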

How the data were processed

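RNA-Seq of 6 libraries was analysed, 3 Control and 3 TGF-β1, with groups and replicate numbers from the sample labels. The deposited values are FPKM: the authors discarded reads of low quality, aligned those left to mm9 with TopHat (TopHat2 2.0.11 in the submitters' processing notes, another version in the paper's methods) and estimated FPKM with Cufflinks. Each row carries a transcript identifier and a symbol, and whether it holds the gene or that transcript alone is not stated.

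limma 3.58.1 in R 4.3.3 (lmFit, eBayes with trend, two-sided, Benjamini-Hochberg over all tested rows) was applied to log2(FPKM + 1), a scale that understates changes of low genes. Rows with a mean of at least 1 FPKM were tested, and genes under this limit came from the same fit without it. The procedure was tested on simulated data. Coordinates are 1-based, from GENCODE M1 on mm9, where 19699 rows were found. Depth assumed fragments of 200 nt, at which 99.5 to 99.9% of low values of single-transcript genes lay within 0.1 of a whole fragment. Fragment numbers are therefore approximate, and those of genes with several transcripts more so. Promoter sequences came from RefSeq (GRCm38.p6), where 6 of the 7 members matched, all but Gjc1. Tables were handled and exact permutation tests computed in Python 3.11.15 (pandas 2.3.3, numpy 2.4.6). The p-values of the permutation tests were adjusted in scipy 1.17.1, and plots were drawn in matplotlib 3.10.9.

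The members and gene lists were chosen with earlier results of these data known. Named were all members, family genes with a row, the 3 largest called changes per direction in the partner and purinergic lists, 4 TGF-β1 responses, the 3 nearest profiles to Gja1 and Gjb2, and genes overlapping a member or starting within 50 kb, and some genes under this rule are not reported here. Marker lists covered mesangial, endothelial, epithelial, podocyte and macrophage genes. Alternatives were 2 pseudocounts, 2 filters, 3 scalings, 2 variance models, terms for replicates, and leaving out libraries.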

Additional observations from a re-analysis of the deposited data

How the results depend on the processing

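In 18 refits no member changed direction in any that gave it a value (16 for Gja4, Gja5 and Gjb5). Gja1 and Gjb2 were called in all 18, with log2 changes of 1.77 to 2.14 and 3.36 to 4.01, and Gjb5 in none of its 16. Of the 7 members 6 were called, and 2 to 6 in the fits that left out 1 library, the lowest without TGF-β1 replicate 1. Among all rows tested through the filter, 5721 (48.1%) were called in the main fit and 4419 to 5446 in the fits that left out 1 library. Without the filter, 11.7% of rows under 1 FPKM were called in the main fit. Gja5 also lost its call with a pseudocount of 0.1 (adjusted p 0.0522) and with robust variance (0.0540), and Panx1 without a filter (0.0681). Rescaling to a common sum of protein-coding rows moved the median change of all rows from -0.02 to -0.19 and the share of calls that were higher from 50.9 to 33.9%, and there Gja1, Gjb2 and Gjc1 kept their calls and Panx1 did not. In replicates 1 and 3 alone, purinergic calls fell from 5 to 3 and calls in the family, counted through the filter in each fit, from 4 to 2. Family calls were 2 to 4 in the fits that left out 1 library, with 2 without Control replicate 2 or TGF-β1 replicate 1 or 3. Counts over all rows (4195 to 6026) and partners (7 to 12) stayed within 1.5 times of the values above.

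Replicate numbers are shared between the groups. Deviations of same-numbered libraries correlated at 0.0921, 0.232 and 0.0853 in replicates 1 to 3, against -0.194 to 0.117 for libraries of different numbers. Control replicate 1 correlated best with TGF-β1 replicate 3. So few libraries can neither show nor exclude a pairing, and a fit with replicate as a block is therefore given too. With the replicate block 4 members were called instead of 6, Gja5 (adjusted p 0.0713) and Panx1 (0.0620) being lost, and 5391 rows in all, with 3 family, 10 partner and 5 purinergic genes.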
